A study of Mus musculus with 6 samples.

Results

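The genes described here are 10 genes of late neutrophil maturation. They comprise S100a8, S100a9, Ltf, Camp, Ngp, Lcn2, Retnlg, Cxcr2, Fpr1 and Fpr2, and they were taken by gene name from the 54532 genes of a mouse RNA-seq count table, in which each name occurs in 1 row. All 10 passed the filter on low counts, as did 14883 genes in all. Retnlg passed it only through the group in which it was higher, so its difference was in part set by the filter.

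The table compares CD8T cells after coculture with macrophages with and without DB2313 treatment, a compound that inhibits Spi1 (PU.1), a myeloid transcription factor, and asks how the treated macrophages change the expression profile of the T cells. In both groups, CD8T cells were isolated from mouse spleen with a CD8T cell kit, activated with anti-CD3/CD28 beads and kept for 24 hr at a ratio of 1:1 with peritoneal macrophages that had been elicited with thioglycolate and then exposed to IFN-γ (10 ng/mL, 12 hr). Macrophages of the control group (n = 3) received no DB2313, and those of the DB2313 group (n = 3) did, at a concentration that the methods give as 14 nM. The labels call the sequenced cells primary T cells and name DC cells as their partners where the methods name macrophages, while labels and methods do not differ on which samples had DB2313. Strain, age and genotype of the mice for these cultures are not given in the sources used here, nor whether the 3 samples of a group were separate cultures, so p-values measure only the spread between these samples. T cells without macrophages were not analysed here.

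Neutrophils form their granules in sequence. Enzymes such as myeloperoxidase and elastase are made by promyelocytes and fill the primary granules, whereas lactoferrin (Ltf), lipocalin 2 (Lcn2), cathelicidin (Camp) and neutrophilic granule protein (Ngp) are made later, by myelocytes and metamyelocytes, and fill the secondary granules. The calprotectin subunits S100a8 and S100a9 fill the cytosol of maturing and mature neutrophils and are also made by monocytes and some macrophages, and the receptors Cxcr2, Fpr1 and Fpr2 guide these cells toward chemokines and formylated peptides. Spi1 and the C/EBP factors drive granulocyte genes, and T cells are not known as a source of the secondary granule proteins.

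Because the genes were followed in cultures in which an inhibitor of Spi1 had been used, the 300 bases around the start of each gene are shown for 4 of them. S100a8 and S100a9 are the most abundant of the 10, Fpr1 had the largest difference between the groups, and Retnlg is the gene that went the other way. The sequences are RefSeq windows of GRCm38.p6, from 250 bases before to 50 bases after the RefSeq start. They are written 5′ to 3′ on the strand of the gene. They lie at chr3:90668821-90669120 (plus strand, S100a8), chr3:90695672-90695971 (minus strand, S100a9), chr17:17883890-17884189 (minus strand, Fpr1) and chr16:48872358-48872657 (plus strand, Retnlg). The RefSeq start of some windows, that of S100a8 among them, differs from the start in the gene coordinates given below. Capitals mark GGAA, or TTCC where GGAA lies on the opposite strand, the core letters of sites of Spi1 and other ETS factors.
S100a8: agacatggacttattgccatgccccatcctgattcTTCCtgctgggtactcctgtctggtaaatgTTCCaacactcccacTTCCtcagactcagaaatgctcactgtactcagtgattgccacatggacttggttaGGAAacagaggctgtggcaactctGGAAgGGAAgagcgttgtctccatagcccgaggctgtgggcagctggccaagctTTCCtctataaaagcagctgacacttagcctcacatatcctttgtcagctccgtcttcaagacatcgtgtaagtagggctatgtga
S100a9: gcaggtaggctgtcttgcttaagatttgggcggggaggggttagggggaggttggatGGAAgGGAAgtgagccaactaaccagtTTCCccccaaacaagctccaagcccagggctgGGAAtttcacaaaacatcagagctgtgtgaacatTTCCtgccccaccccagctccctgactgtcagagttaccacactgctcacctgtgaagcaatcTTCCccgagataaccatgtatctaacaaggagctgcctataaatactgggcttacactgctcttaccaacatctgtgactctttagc
Fpr1: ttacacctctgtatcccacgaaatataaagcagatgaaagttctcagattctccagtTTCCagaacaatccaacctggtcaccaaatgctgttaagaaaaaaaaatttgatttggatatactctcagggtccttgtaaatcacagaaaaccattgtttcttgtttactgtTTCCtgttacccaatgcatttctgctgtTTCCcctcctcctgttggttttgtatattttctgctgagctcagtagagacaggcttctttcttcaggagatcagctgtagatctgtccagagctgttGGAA
Retnlg: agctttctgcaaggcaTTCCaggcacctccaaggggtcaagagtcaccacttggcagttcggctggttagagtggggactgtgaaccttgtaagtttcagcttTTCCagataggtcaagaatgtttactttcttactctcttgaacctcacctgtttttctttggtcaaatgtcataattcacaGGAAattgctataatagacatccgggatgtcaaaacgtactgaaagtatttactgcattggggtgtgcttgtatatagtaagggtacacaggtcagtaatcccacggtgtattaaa

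Each of the 10 genes matched 1 window, and GGAA occurred on either strand in 10 of 10. It also occurred in 95.98% of the 32851 windows of the RefSeq table, where the median number of matches was 3. The genes held 7 matches in S100a8, Cxcr2 and Fpr2, 6 in S100a9, 5 in Ltf, Camp and Lcn2, 4 in Fpr1, 3 in Retnlg and 1 in Ngp. GAGGAAGT, a longer Spi1 sequence that always contains GGAA, was found in 1 window, that of S100a8, where it lies on the minus strand (ACTTCCTC in the printed strand) and begins at -172 bases from the start. Of all windows, 3.202% held it. TTNNGNAA, letters common to C/EBP sites that can overlap GGAA, was found in 8 of 10 windows, the exceptions being Camp and Cxcr2, and in 40.68% of all windows. TATAAA was found in 4 windows, those of S100a8, S100a9, Fpr1 and Fpr2, and in 13.62% of all windows. The matches are a description of letters in these windows and not of binding. Fpr1, with the largest fall, had 4 GGAA matches, and S100a8 and Fpr2, with the next largest falls, had 7. Cxcr2, with the smallest fall, also had 7, Ngp had 1, and Retnlg, which rose, had 3. A relation between the number of matches and the difference was not tested.

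**Figure D1:**
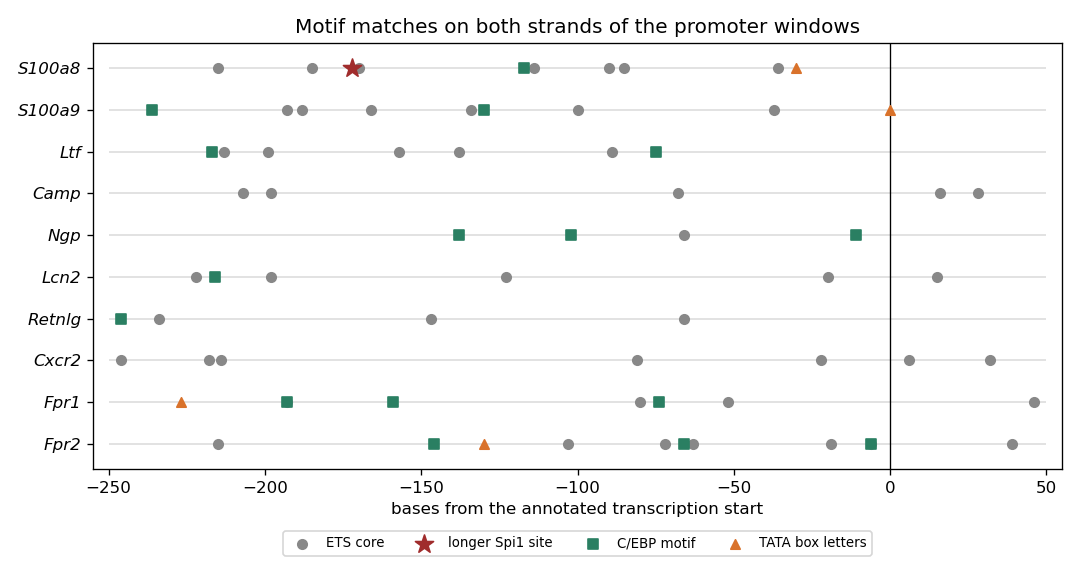
Positions of motif matches in the 300-base RefSeq promoter windows of the 10 genes. The x axis gives the distance from the RefSeq start in bases, with negative values before it. Each line is 1 gene, with circles for GGAA, a star for GAGGAAGT, squares for TTNNGNAA and triangles for TATAAA, all on either strand. GGAA is present in all 10 windows and GAGGAAGT only in that of S100a8.

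Depth was even, with 16611975 to 18596217 reads counted on genes per library, and for a gene without counts the limit of 3 counts corresponds to 0.161 to 0.181 CPM (counts scaled to library size), counting error only. The chi-square per gene was 2.54 to 4.0 between libraries of a group, above sampling noise, against 51.8 to 56.0 between groups, so none was treated as a copy of another. The common biological coefficient of variation was 4.67%. The labelled T cell identity was checked with 12 T cell markers, all of which were present. Per length (RPKM, CPM per kilobase), Cd8a was at 32.5 ± 1.08 and 47.1 ± 2.81 and Cd8b1 at 72.3 ± 4.04 and 111.9 ± 1.41 in the control and DB2313 groups (SD, n = 3 each). Genes that mark cells outside a CD8T isolate were also present. Cd4 of helper T cells, at 52.7 ± 0.628 and 72.8 ± 1.14 RPKM, lay between Cd8a and Cd8b1. The immunoglobulin gene Ighm of B cells, at 136 ± 1.03 and 194.7 ± 3.25 RPKM, lay above both (SD, n = 3 each). The libraries were therefore not CD8T cells alone by these genes, and the part of other lymphocytes in the results was not tested. The T cell markers took 0.185% to 0.186% of the counts in the control libraries and 0.303% to 0.306% in the DB2313 libraries. The 13 macrophage markers took 0.996% to 1.02% and 0.343% to 0.353%.

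Between the groups, 9 of the 10 genes fell with DB2313 and 1, Retnlg, rose. Their median log2 fold change, DB2313 over control, was -1.89, against 0.020 over all 14883 tested genes. Together the 10 genes accounted for 0.19% ± 0.000492 of control counts and 0.0505% ± 0.00196 of DB2313 counts (SD, n = 3 each), which is 3.76-fold less. CPM were normalized with TMM factors, which assume that most genes do not change, and a gene was called at an adjusted p below 0.05 in edgeR's quasi-likelihood test. By that rule, 24.6% of all tested genes were lower and 20.8% were higher. A further threshold of -1 on the log2 fold change was passed by 8 of the 10 genes and by 5.3% of all tested genes. In 9 genes every DB2313 library lay below every control library, as did 27.5% of all tested genes. In these bulk cultures, fewer cells of a type and less RNA per cell cannot be told apart. Macrophage markers fell in the same libraries, 13 of 13 being lower at a median of -1.22, and their part in the result was not tested. Scaled to the macrophage markers, 6 of the 10 genes were lower with a median of -0.27, Cxcr2 and Retnlg were higher, and Camp and Ngp did not pass. That scaling did not level the markers themselves, of which 3 were lower and 8 higher at a median of 0.40, and Lyz2, which neutrophils also express, held 73.6% to 74.2% of the marker counts in the control libraries and 61.3% to 61.9% in the DB2313 libraries. Without Lyz2 in the scaling, an alternative chosen after the data were seen, 8 of the 10 genes were lower with a median of -0.83, Camp (-0.49) and Ngp (-0.64) among them, and Cxcr2 and Retnlg were higher. Scaling to all 13 markers left 167 of the 14883 tested genes lower and 14156 higher, and moved the median of all tested genes to 1.64. Relative to that median the 10 genes were at -1.91 on the log2 scale, as with TMM. A scaling shifts all genes by about the same amount, so this distance could not have changed and is no separate check.

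**Figure D2:**
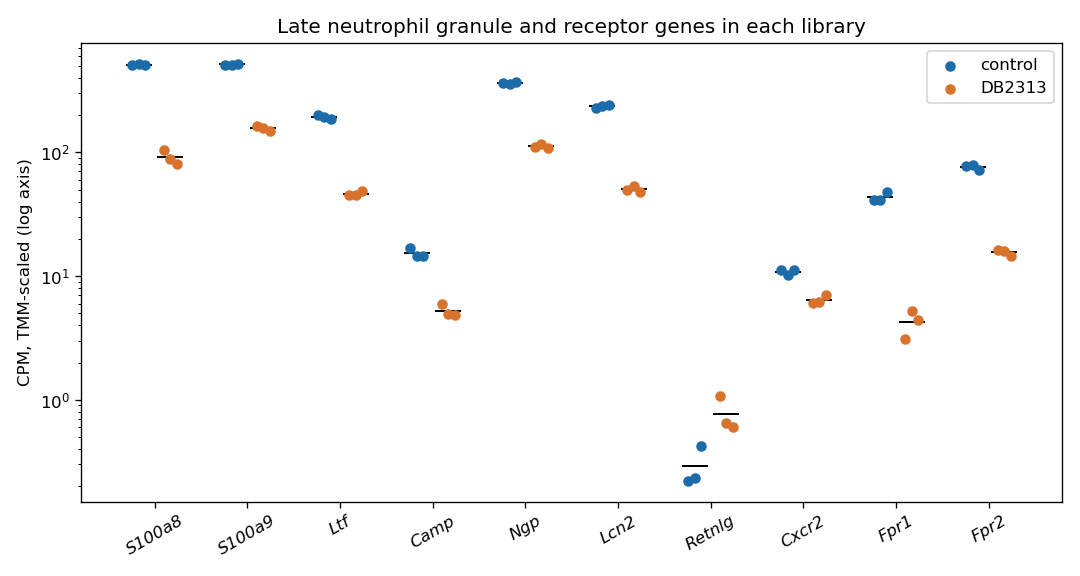
Normalized level of the 10 genes in each of the 6 libraries. The y axis is TMM-scaled CPM on a log scale, the x axis lists the genes, points are the 3 control and 3 DB2313 libraries, and short lines mark the means. The groups do not overlap in any gene, and Retnlg alone is higher with DB2313. With macrophage marker scaling, which moves the median of all tested genes to 1.64, Camp and Cxcr2 also had positive log2 fold changes.

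S100a8 and S100a9 are calcium-binding proteins that pair as calprotectin and are secreted as alarmins. S100a8 (ENSMUSG00000056054) lies at chr3:90668978-90670035 on the plus strand of GRCm38, and S100a9 (ENSMUSG00000056071) at chr3:90692632-90695721 on the minus strand, 22.6 kb apart. S100a8 stood at 504, 519 and 507 CPM in the control libraries and at 104, 87.7 and 81.1 CPM in the DB2313 libraries. It was lower in each DB2313 library than in any control library, and the means of 509.9 ± 7.90 and 91.0 ± 11.9 CPM (SD, n = 3 each) differed by a log2 fold change of -2.49 (standard error 0.056, adjusted p = 1.93e-20, edgeR). S100a9 stood at 512, 508 and 518 CPM in the control libraries and at 163, 158 and 148 CPM in the DB2313 libraries. It fell less, from 512.9 ± 5.03 to 156 ± 7.79 CPM (SD, n = 3 each), with a log2 fold change of -1.72 (standard error 0.038, adjusted p = 1.14e-20, edgeR).

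The balance of the subunits differed between the groups. Counts of S100a8 per count of S100a9 were 0.984, 1.02 and 0.978 in the control libraries and 0.639, 0.556 and 0.549 in the DB2313 libraries, without overlap. This ratio is taken within a library and does not depend on the scaling. Its mean log2 value moved from -0.0083 ± 0.033 to -0.785 ± 0.121 (SD, n = 3 each). The exact permutation test gave p = 0.1, the smallest value this test can give for 3 against 3 libraries, and 0.2 after Benjamini-Hochberg adjustment over 4 pairs.

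The other genes of the S100 family were also followed. Of 14, only 6 had enough counts to be tested, and 5 of these fell. S100a11, the most abundant of them per length, fell from 427 ± 19.5 to 142 ± 2.51 CPM, with a log2 fold change of -1.59. S100a1, S100a6, S100a13 and S100a10 fell by 0.95, 0.84, 0.40 and 0.30 on the log2 scale. S100a4 did not pass, with a log2 fold change of -0.59 (adjusted p = 0.121, edgeR). The median of the 6 was -0.71. With libraries scaled to the macrophage markers it was 0.90, with 5 of the 6 higher. All tested genes had a median of 1.64 with that scaling, and 14156 of 14883 were higher. S100a8 and S100a9 thus had the lowest values of the tested family members, -2.49 and -1.72.

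The secondary granule proteins Ltf, Lcn2, Ngp and Camp all fell. Lactoferrin, encoded by Ltf (ENSMUSG00000032496, chr9:111019271-111042767, plus strand), binds iron. It stood at 200.2, 193 and 187 CPM in the control libraries and at 45.1, 45.2 and 48.5 CPM in the DB2313 libraries. The groups were far apart compared with their spread, which gave a log2 fold change of -2.06 (standard error 0.045, adjusted p = 9.43e-21, edgeR).

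Lcn2 (ENSMUSG00000026822, chr2:32384633-32388252, minus strand) encodes lipocalin 2, which binds bacterial siderophores. Its levels were 228, 235 and 243 CPM in the control libraries and 49.7, 53.8 and 47.8 CPM in the DB2313 libraries. It fell 4.67-fold, with a log2 fold change of -2.22 (standard error 0.045, adjusted p = 3.11e-21, edgeR). The SDs of its groups were 7.74 and 3.07 CPM.

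Ngp (ENSMUSG00000032484, chr9:110419747-110423012, plus strand) encodes a cathelin-related protein of neutrophil granules. It stood at 362, 358 and 373 CPM in the control libraries and at 111, 118 and 109 CPM in the DB2313 libraries. That gave a log2 fold change of -1.70 (standard error 0.038, adjusted p = 1.93e-20, edgeR). Camp (ENSMUSG00000038357, chr9:109847379-109849617, minus strand) encodes cathelicidin, an antimicrobial peptide precursor of the same protein family, and was the least abundant of the 4. Its levels were 16.9, 14.6 and 14.5 CPM in the control libraries and 5.95, 4.97 and 4.83 CPM in the DB2313 libraries, a log2 fold change of -1.55 (standard error 0.13, adjusted p = 5.71e-10, edgeR). Both genes fell about 3-fold, and no DB2313 library reached the lowest control library.

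Camp, Ngp and Ltf share a region of chromosome 9, with 570.1 kb between Camp and Ngp and 596.3 kb between Ngp and Ltf. Ratios were taken for Camp to Ngp and, across chromosomes, for Ltf to Lcn2. The log2 ratio of Camp to Ngp went from -4.57 ± 0.141 to -4.42 ± 0.184 with DB2313 (SD, n = 3 each), a difference of 0.15 (exact permutation p = 0.4, adjusted 0.4). That of Ltf to Lcn2 was -0.286 ± 0.098 and -0.124 ± 0.137 (SD, n = 3 each), a difference of 0.16 (exact permutation p = 0.2, adjusted 0.267). Neither p shows that the ratios were equal, and the differences were smaller than those of the S100a8 and S100a9 pair and the Fpr1 and Fpr2 pair.

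**Figure D3:**
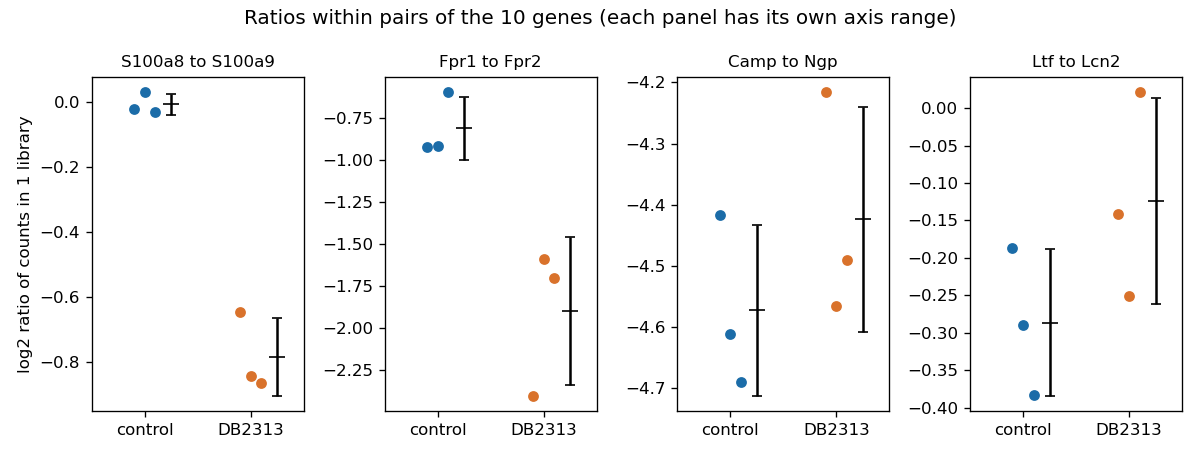
Ratios within 4 pairs of the 10 genes in each library. The y axis is the log2 ratio of the counts of the first gene to those of the second, with its own range in each panel, points are libraries, and bars mark the mean and SD of 3 libraries. The ratio of S100a8 to S100a9 moves from -0.0083 to -0.785 and that of Fpr1 to Fpr2 from -0.815 to -1.90, while the other pairs move by 0.15 and 0.16.

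The receptors spanned both the largest and the smallest of the falls. Fpr1 and Fpr2 encode G protein-coupled receptors for formylated peptides and lie 3.88 kb apart on chromosome 17. Fpr1 (ENSMUSG00000045551, chr17:17876471-17883940, minus strand) stood at 41.0, 41.5 and 47.5 CPM in the control libraries and at 3.08, 5.27 and 4.45 CPM in the DB2313 libraries. This was a 10.2-fold lower mean, with a log2 fold change of -3.35 (standard error 0.12, adjusted p = 1.42e-16, edgeR), and 39 of all tested genes had a lower value. Fpr2 (ENSMUSG00000052270, chr17:17887824-17893952, plus strand) stood at 77.9, 78.4 and 72.0 CPM in the control libraries and at 16.3, 15.9 and 14.5 CPM in the DB2313 libraries. That gave a log2 fold change of -2.29 (standard error 0.070, adjusted p = 4.23e-18, edgeR).

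The log2 ratio of Fpr1 to Fpr2 went from -0.815 ± 0.187 to -1.90 ± 0.442 with DB2313 (SD, n = 3 each), a difference of -1.09 without overlap (exact permutation p = 0.1, adjusted 0.2). Fpr2 overlaps Fpr3 by 6101 bases on the same strand, and 31.4% of its 1295 possible 50-base stretches also occur in Fpr3 or Gm5966, so the division of reads among these genes is uncertain. Fpr3 had 6, 9 and 15 counts in the control libraries and 0, 1 and 0 in the DB2313 libraries. It did not pass the filter used with edgeR, and DESeq2, run without that filter, called it lower (adjusted p = 0.00348). The 4 Fpr-rs genes had 0 counts in every library.

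Cxcr2 (ENSMUSG00000026180, chr1:74153989-74161246, plus strand) encodes the receptor of the chemokines Cxcl1, Cxcl2, Cxcl3, Cxcl5 and Ppbp and had the smallest fall. It stood at 11.1, 10.1 and 11.2 CPM in the control libraries and at 6.11, 6.15 and 7.002 CPM in the DB2313 libraries. The groups did not overlap, with a log2 fold change of -0.75 (standard error 0.13, adjusted p = 3.65e-05, edgeR). Scaled to the macrophage markers, it was 0.87 (adjusted p = 1.42e-06, edgeR), below the median of 1.64 over all tested genes. Of the 50-base stretches of Cxcr2, 6.68% of 3039 also occur in other genes.

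Retnlg (ENSMUSG00000022651, chr16:48872621-48874496, plus strand) encodes a secreted resistin-like protein of neutrophils and was nearly absent. It had 4, 4 and 7 counts in the control libraries and 20, 11 and 11 counts in the DB2313 libraries. These are 0.221, 0.232 and 0.427 CPM against 1.08, 0.644 and 0.597 CPM, without overlap but close to the limit of 3 counts. The fitted log2 fold change was 1.39, with a standard error of 0.51 (adjusted p = 0.0288, edgeR). The call was lost with DESeq2 (adjusted p = 0.131), without the filter on low counts (0.0730), with T cell marker scaling (0.165), without control replicate 1 or 2 (0.116 and 0.112) without DB2313 replicate 1 (0.158), and in a test against a log2 fold change of 1 with glmTreat (1), all but the first in edgeR.

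Levels of different genes were compared per length, as RPKM (TMM-normalized CPM per kilobase of the length given in the table). In the control group, S100a9 was highest at 983 RPKM, followed by S100a8 at 735, Ngp at 298, Lcn2 at 89.8, Fpr2 at 58.7, Ltf at 56.0, Fpr1 at 32.7, Camp at 20.2, Cxcr2 at 3.55 and Retnlg at 0.495. Among neighbours in this order, the libraries of Fpr2 and Ltf overlapped. In the DB2313 group, S100a9 at 299 RPKM, S100a8 at 131, Ngp at 91.9 and Lcn2 at 19.2 kept the first places. They were followed by Ltf at 13.4, Fpr2 at 12.01, Camp at 6.93, Fpr1 at 3.22, Cxcr2 at 2.11 and Retnlg at 1.31, and no neighbours overlapped. Fpr1 thus moved from above to below Camp.

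Other genes of the same maturation program were read from 2 lists that share Cd177 and Mmp8. Of 12 other genes of secondary and tertiary granules, 11 fell (median log2 fold change -1.49), and Fcnb did not pass (log2 fold change -0.063, adjusted p = 0.863, edgeR). The gelatinase Mmp9 had the largest fall, -3.08. The chitinase-like Chil3, the most abundant of them per length, fell by 0.27, so a member of this list at a high level changed little. Also on this list is Itgam, at -1.83, which the paper uses with Lyz2 to mark myeloid cells. Of 14 identity markers of mature neutrophils, 12 fell, with a median of -1.44. Ly6g, the antigen by which mouse neutrophils are commonly sorted, fell from 14.7 ± 0.891 to 0.967 ± 0.276 CPM (SD, n = 3 each), a log2 fold change of -3.92. The collagenase Mmp8, the most abundant of these markers per length, fell by 0.27. Cxcr1 had a log2 fold change of 0.70 and did not pass (adjusted p = 0.187, edgeR), nor did Trem1 at -0.076 (adjusted p = 0.594). With libraries scaled to the macrophage markers, 5 genes of each list were lower and 6 and 7 were higher. Of all 14883 tested genes, 167 were lower and 14156 higher with that scaling.

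The earlier primary granule genes went the other way. All 6 of the list rose (median log2 fold change 0.95), and the largest rise was that of Prss57 at 1.202. Mpo, which encodes myeloperoxidase, rose from 148 to 287.5 CPM on average, a log2 fold change of 0.96. Elane, Prtn3 and Ctsg, which encode serine proteases, rose by 1.13, 0.94 and 0.92, and Ms4a3 rose by 0.52. With libraries scaled to the T cell markers 5 of the 6 were still higher, and Ms4a3 was at -0.099 and did not pass. Summed counts of the 10 genes per count of the 6 primary granule genes were 3.86, 3.92 and 3.77 in the control libraries and 0.509, 0.5005 and 0.479 in the DB2313 libraries. The primary granule genes thus had fewer counts than the 10 genes in every control library and more in every DB2313 library, and this ratio does not depend on the scaling.

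The same ratio was taken against the other lists. Over the macrophage markers it was 0.189, 0.190 and 0.186 in the control libraries and 0.149, 0.144 and 0.141 in the DB2313 libraries. The 10 genes thus had a larger fall in summed counts than these markers, 3.76-fold against 2.88-fold. Over the identity markers of mature neutrophils it was 2.74 to 2.76 and 1.11 to 1.24, and over the other secondary and tertiary granule genes 1.13 to 1.17 and 0.467 to 0.51. In no case did the groups overlap. Such ratios weigh genes by their counts. Lyz2, which fell 3.70-fold, held 73.6% to 74.2% of the macrophage marker counts in the control libraries. S100a8 and S100a9 took 0.0990% of control counts, out of 0.190% for the 10 genes. Mmp8, at 330 CPM in the control and 273 CPM in the DB2313 group, had the most counts of the identity markers. Chil3, at 484 and 401 CPM, and then Mmp8 had the most of the other granule genes. Both had a log2 fold change of -0.27. The medians of these 2 lists were -1.44 and -1.49, against -1.89 for the 10 genes.

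**Figure D4:**
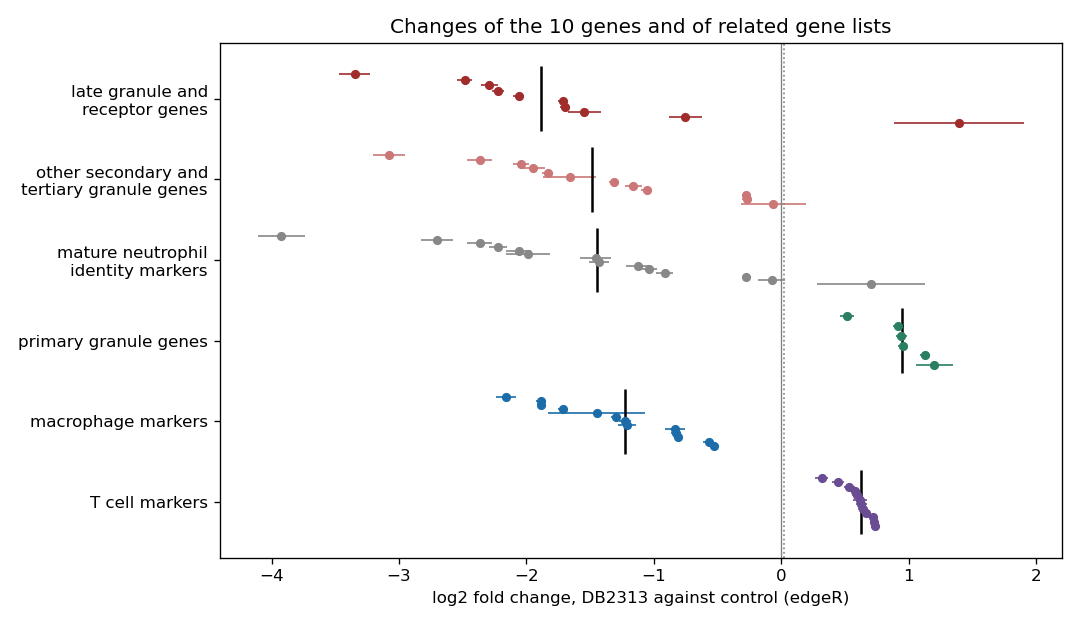
Log2 fold change (DB2313 over control, TMM scaling) of each tested gene of the 10 late granule and receptor genes and of related lists. Points are genes with their standard errors, tall ticks are list medians, the solid line is 0 and the dotted line the median of all tested genes. Medians are -1.89 for the 10 genes, -1.49 for other secondary and tertiary granule genes, -1.44 for identity markers and 0.95 for primary granule genes. The first 3 of these medians rise to -0.27, 0.13 and 0.18 with macrophage marker scaling, which moves the median of all tested genes to 1.64.

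Markers of other cells that could hold these transcripts were counted as well. Of 6 monocyte markers 4 fell (median -0.50), of 7 dendritic cell markers 5 fell and 1 rose (median -0.23), of 5 tested eosinophil markers 2 fell and 1 rose, and of 5 mast cell and basophil markers 2 fell and 2 rose. These directions depend on the scaling, since with macrophage marker scaling 0 monocyte markers were lower and 6 higher, and lower and higher counts were 2 and 5 for dendritic cells, 1 and 4 for eosinophils and 1 and 4 for mast cells and basophils. With T cell marker scaling no marker of these 4 lists was higher. Of all 14883 tested genes, 167 were lower and 14156 higher with macrophage marker scaling, and 11713 and 142 with T cell marker scaling. All 12 T cell markers rose, with log2 fold changes of 0.32 to 0.74. Macrophage markers fell by 0.52 in Cd68 to 2.16 in Mertk, and Lyz2, an abundant lysozyme gene of macrophages and neutrophils, had 7691 and 2081 CPM. No marker of these lists averaged 0 in either group. Their part in the fall of the 10 genes was not tested.

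Factors that act on granulocyte genes were measured in the same libraries. Spi1, the target of DB2313, fell from 285.9 ± 6.72 to 155.4 ± 6.19 CPM (SD, n = 3 each), a log2 fold change of -0.88. Cebpe, which drives secondary granule genes, fell from 20.05 ± 0.556 to 13.6 ± 0.480 CPM (SD, n = 3 each), a log2 fold change of -0.56. Irf8, Cebpd and Cebpb fell by 1.08, 0.53 and 0.19, whereas Cebpa and the repressor Gfi1 rose by 0.15 and 0.60. Of the 7 factors, 5 fell and 2 rose. Scaled to the T cell markers, Cebpa was lower at -0.47 and Gfi1 did not pass at -0.019. Scaled to the macrophage markers all 7 were higher, as were 14156 of all 14883 tested genes.

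Ligands and partners of the 10 genes did not share 1 direction. Of 10 tested, 4 fell, 2 rose and 4 did not pass. With T cell marker scaling 4 were lower and 0 higher, against 11713 and 142 of all 14883 tested genes. With macrophage marker scaling 1 was lower and 9 were higher, against 167 and 14156 of all tested genes. Among the Cxcr2 ligands, Ppbp rose from 67.1 ± 0.945 to 109.8 ± 3.37 CPM (SD, n = 3 each) and Cxcl3 fell by 0.54 on the log2 scale. Cxcl1, Cxcl2 and Cxcl5 had log2 fold changes of 0.75, 0.30 and 0.89 and did not pass. Of receptors bound by S100a8 and S100a9, Cd36 fell by 2.25 and Tlr4 by 0.92, while Ager was at 0.34 and did not pass. Anxa1, a ligand of formyl peptide receptors, fell by 0.15, and Slc22a17, a receptor of lipocalin 2, rose by 0.95. With macrophage marker scaling Anxa1, Tlr4 and Cxcl3 were at 1.47, 0.70 and 1.08, and Cd36 was the gene that stayed lower.

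**Figure D5:**
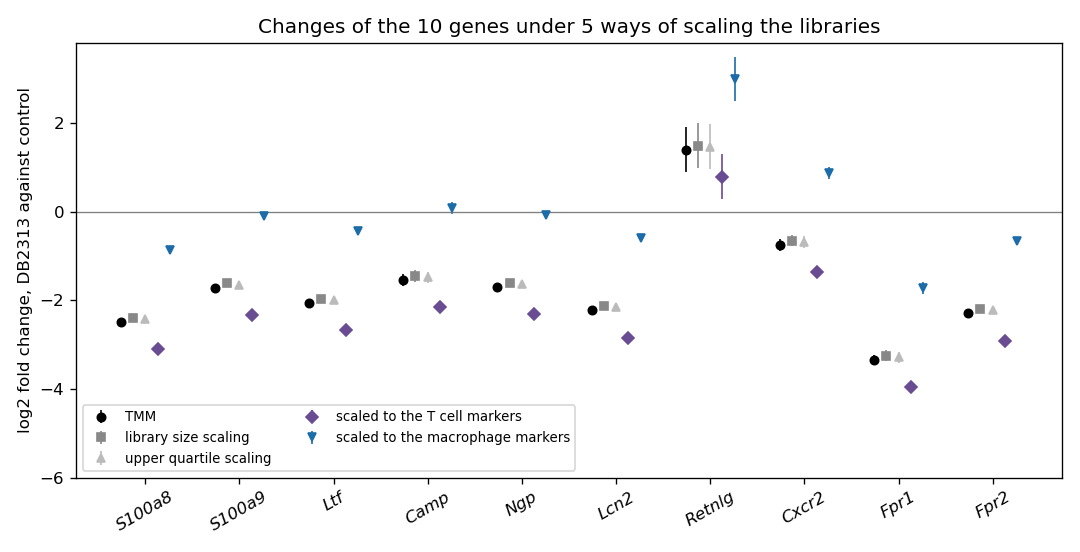
Log2 fold changes of the 10 genes under different scalings of the libraries. The y axis is the log2 fold change of DB2313 over control with its standard error, the x axis lists the genes, and symbols are TMM, library size, upper quartile, T cell marker and macrophage marker scaling. The first 4 scalings keep 9 genes below 0, and under macrophage marker scaling Camp (0.074) and Cxcr2 (0.87) are above 0. The median of all tested genes is 1.64 under that last scaling.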

How the data were processed

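Per the deposited file, values are raw counts of reads per gene, one column per library, made by the authors without normalization. The submitters' processing notes name CASAVA 1.8, HISAT2 2.0.5 and featureCounts 1.5.0-p3, whereas the paper's methods name LifeScope. The genome build and strandedness are not given in the sources used here, and 98.327% of the 54409 genes shared with GENCODE M21 had its GRCm38 coordinates. Counts of each column were matched to a sample by its label.

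Genes were tested with edgeR 4.0.16 in R 4.3.3 (filterByExpr, TMM, glmQLFit, glmQLFTest) with Benjamini-Hochberg adjustment over all 14883 tested genes and a threshold of 0.05. Within-library ratios were compared with a two-sided exact permutation test. Alternatives were DESeq2 1.42.0, other scalings and filters, a replicate block, and leaving out each library. The edgeR and DESeq2 fits were tested on simulated data with known changes, in a smaller share of genes than was called here. RefSeq promoter windows were searched on both strands. Protein sequences were not compared here.

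The 10 genes and the lists were chosen with earlier results of these data known. Named were the 10 genes, Spi1, lists of up to 7 genes, from longer lists the most abundant gene per length, the largest rise and the largest fall, and the 5 genes most like the 10 in profile. Cell type lists were given by counts. Other genes named were chosen after their values were seen.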

Additional observations from a re-analysis of the deposited data

How the results depend on the processing

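The median log2 fold change of the 10 genes moved with the scaling of the libraries, to -1.795 with library size, -1.825 with upper quartile, -2.507 with T cell marker and -0.2667 with macrophage marker scaling, and it was -2.065 over the 9 genes with at least 10 counts in every sample. These scalings moved the median of all tested genes by about as much, to 0.114, 0.083, -0.598 and 1.64. Relative to it the 10 genes were at -1.91 on the log2 scale in each, a distance that scaling cannot change because it shifts all genes alike. All calls split into 3666 lower and 3096 higher genes with TMM, 2852 and 4932 with library size, 3102 and 4319 with upper quartile, 11713 and 142 with T cell marker and 167 and 14156 with macrophage marker scaling. Under macrophage marker scaling 6 of the 10 genes were lower, Camp reversed to 0.074 (adjusted p = 0.587, edgeR) and Cxcr2 to 0.87, and 5 of the other secondary and tertiary granule genes and 5 of the identity markers were lower. With that scaling without Lyz2, added after the data were seen, the median was -0.8268, 8 of the 10 genes, 7 of the other granule genes and 8 of the identity markers were lower, Cxcr2 was at 0.3104 (adjusted p = 0.0313, edgeR), and all calls were 409 lower and 13140 higher. With glmTreat or a log2 fold change beyond 1, 8 were lower. The other alternatives kept 9 lower.

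Leaving out 1 library at a time gave a median between -1.896 and -1.876. Replicate numbers did not pair the libraries, since same-numbered deviations correlated at 0.0138, -0.00389 and 0.0187, and with the number as a replicate block 9 of the 10 genes were lower, the median was -1.889 and all calls were 3525 lower and 2917 higher. Depth limits Retnlg, at 4 to 20 counts per library. The exact permutation test of the pair ratios cannot go below 0.1 with 3 against 3 libraries. T cells alone were not analysed here. The shifts with marker scaling follow from the marker counts, and why these counts differed between the groups was not tested.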

Other observations

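Genes whose profile over the 6 libraries was most like the mean of the 10 genes were sought among 9652 genes with at least 10 CPM in the control group. Kcnj10, a potassium channel, Fuca1, a lysosomal fucosidase, Clec4d, a C-type lectin receptor of myeloid cells, Ccl5, a chemokine, and Myo1f, a myosin of leukocytes, came first, with Pearson's r of 0.9996 to 0.9998 over the 6 libraries on the log2(CPM + 0.5) scale. Clec4d went from 124 to 48.8 CPM and Ccl5 from 756.5 to 306 CPM on average. The measure reflects the difference between the groups, which all points share, and 550 genes, 5.70% of those compared, reached 0.99 or more.

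Genes next to the 10 had a share of falls nearer to that of all genes. Within 100 kb, 30 genes were tested, of which 9 (30%) were lower and 1 was higher, with a median log2 fold change of -0.078, against 24.6% lower among all tested genes. None of the 8 neighbours of Lcn2 passed. Retnla, the resistin-like neighbour of Retnlg, had 28, 28 and 27 counts in the control libraries and 0 in each DB2313 library, where Retnlg had 20, 11 and 11. Set against 3 counts per library, this is at least 8.90-fold lower. Retnla passed the filter on low counts only through the control group, so its call among the 9 was in part set by the filter. These neighbours were chosen after values were seen.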
